A study of Homo sapiens with 18 samples.

Results

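Of the 9533 GR binding regions (GBR) called after depletion of Hic-5, 5609 (58.8%) had no overlapping peak with control siRNA alone, and none when CHD9 or BRM was depleted together with Hic-5. They are called doubly lost GBR here. They were selected on the authors' peak calls: a peak of the siHic5/siNS list was a member when no peak of the siNS/siNS, siCHD9/siHic5 and siBRM/siHic5 lists overlapped it by at least 1 bp. The first condition makes a GBR blocked (7059 GBR, 74% of all), the second gives loss with CHD9 depletion (7190 GBR, 75.4% of all) and the third gives loss with BRM depletion (6231 GBR, 65.4% of all). Loss here means only that no peak was called. The siBRM/siHic5 list had the highest cutoff of all lists, and 51.4% of the doubly lost GBR lay below it in siHic5/siNS, as described below. The doubly lost GBR were 79.5% of the blocked GBR. The remaining 1450 blocked GBR comprised 783 lost with CHD9 depletion only, 268 lost with BRM depletion only, and 399 that were called in both double depletions.

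GR ChIP-seq was performed in U2OS-GRα, a derivative of the U2OS osteosarcoma cell line stably expressing the glucocorticoid receptor α. The 6 groups were siNS/siNS (nonspecific control siRNA alone), siHic5/siNS, siCHD9/siHic5, siBRM/siHic5, siCHD9/siNS and siBRM/siNS, each with 2 ChIP libraries and 1 input library (12 and 6 in all). In every group the siRNA acted for 48 h before 100 nM dexamethasone (dex) was added for 1 h, so no group lacked hormone. Depletion by siRNA lowers a protein without deleting its gene, and GR was supplied by a stable transgene. The deposited data are 1 peak list per group made from pooled replicates, so each GBR has 1 value per list, there is no spread between replicates, and read depth is not given in the lists. Every interval below is a 95% interval that covers counting error only, and every p-value treats GBR, not libraries, as units.

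GR is a ligand-activated transcription factor that binds the glucocorticoid response element (GRE), a pair of inverted half-sites. Hic-5, encoded by TGFB1I1, is a paxillin family adapter of focal adhesions that also acts in the nucleus as a coregulator of GR and other nuclear receptors. CHD9 belongs to the chromodomain helicase family of chromatin remodelers, and BRM, encoded by SMARCA2, is an ATPase of SWI/SNF complexes, which move or evict nucleosomes. GR often binds beside other factors, among them AP-1 (dimers of FOS and JUN proteins) and ETS family proteins, whose DNA elements are common in enhancers.

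The sequences below show what lay under the summits, in windows of 140 bp centered on the summit, plus strand of GRCh38, with the named match in capitals. The first set holds the strongest doubly lost GBR, by the −log10 p-value that the authors obtained with MACS2, that carried a GRE match in this window. A GRE match was counted as 2 inverted half-sites GNACA, each preceded by a purine on its own strand, 3 bases apart, which gives 15 bases with 10 defined positions, of which 1 could mismatch. The regions, named after the nearest protein-coding transcription start site (TSS), lay at chr1:86788772-86788911, chr22:48702743-48702882 and chr9:91100984-91101123.
SH3GLB1: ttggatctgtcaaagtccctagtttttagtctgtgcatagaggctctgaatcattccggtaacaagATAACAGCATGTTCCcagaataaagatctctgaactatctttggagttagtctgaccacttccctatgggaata
TAFA5: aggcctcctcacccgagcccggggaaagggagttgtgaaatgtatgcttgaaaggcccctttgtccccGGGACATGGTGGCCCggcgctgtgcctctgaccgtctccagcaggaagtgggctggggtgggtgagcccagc
AUH: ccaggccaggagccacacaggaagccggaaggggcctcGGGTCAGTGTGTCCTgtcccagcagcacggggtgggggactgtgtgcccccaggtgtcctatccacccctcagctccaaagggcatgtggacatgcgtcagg

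The second set holds strong doubly lost GBR whose GRE had no mismatch, at chr1:60573185-60573324 and chr7:66255173-66255312. Neither of these windows held an AP-1 match. Within 100 bp of the summit such a match was present at 17.2% of all doubly lost and 19.4% of all siHic5/siNS GBR.
C1orf87: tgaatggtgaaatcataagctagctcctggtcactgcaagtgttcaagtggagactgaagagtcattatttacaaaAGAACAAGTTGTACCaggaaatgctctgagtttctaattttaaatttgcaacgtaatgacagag
TPST1: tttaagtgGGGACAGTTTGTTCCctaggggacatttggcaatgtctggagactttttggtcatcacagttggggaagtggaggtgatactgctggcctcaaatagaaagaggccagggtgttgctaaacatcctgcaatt

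The third set, chosen after their values were seen, shows other elements in doubly lost GBR. An ETS match (CAGGAA or CCGGAA followed by a purine and a pyrimidine) is in capitals for SRSF5 and G2E3, at chr14:69719610-69719749 and chr14:30267329-30267468, where it reads on the minus strand. An AP-1 match (TGACTCA or TGAGTCA) is in capitals for SPDYE21, a gene of a multicopy family, and CHST1, at chr7:67821300-67821439 and chr11:45557496-45557635. The windows of SRSF5, G2E3 and CHST1 also held a GRE match, not in capitals.
SRSF5: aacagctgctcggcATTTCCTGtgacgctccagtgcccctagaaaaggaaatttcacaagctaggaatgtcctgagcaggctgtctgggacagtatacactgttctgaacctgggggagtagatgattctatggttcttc
G2E3: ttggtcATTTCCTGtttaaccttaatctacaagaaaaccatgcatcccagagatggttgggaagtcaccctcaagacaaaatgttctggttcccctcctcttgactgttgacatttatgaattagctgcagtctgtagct
SPDYE21: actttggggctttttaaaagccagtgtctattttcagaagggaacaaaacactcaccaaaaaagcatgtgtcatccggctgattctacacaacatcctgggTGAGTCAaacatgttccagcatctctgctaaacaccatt
CHST1: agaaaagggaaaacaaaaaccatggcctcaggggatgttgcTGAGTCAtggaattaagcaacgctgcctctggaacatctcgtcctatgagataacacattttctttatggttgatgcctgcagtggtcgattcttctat

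For comparison, the strongest blocked GBR that were called in both double depletions and had an AP-1 match within this window lay at chr9:108150849-108150988, chr5:94983885-94984024 and chr10:78579002-78579141. Each of these windows also held a GRE match, and the AP-1 match is in capitals.
KLF4: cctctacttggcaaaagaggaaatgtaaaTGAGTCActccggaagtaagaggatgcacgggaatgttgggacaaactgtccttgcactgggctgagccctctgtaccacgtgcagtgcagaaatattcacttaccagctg
MCTP1: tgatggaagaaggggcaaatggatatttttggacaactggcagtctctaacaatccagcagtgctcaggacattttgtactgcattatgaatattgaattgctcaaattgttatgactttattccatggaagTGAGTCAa
ZMIZ1: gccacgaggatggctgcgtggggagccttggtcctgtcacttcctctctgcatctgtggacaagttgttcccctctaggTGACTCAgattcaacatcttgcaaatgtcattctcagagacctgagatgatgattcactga

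These comparison regions had a called peak in each double depletion. Their summits lay 661 kb (KLF4), 301 kb (MCTP1) and 490 kb (ZMIZ1) from the TSS they are named after. The GBR named after KLF4 had a −log10 p-value of 96.5 in siHic5/siNS, 18.8 in siCHD9/siHic5 and 40.8 in siBRM/siHic5. Values of different lists are set side by side only, since the lists were called separately.

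Peak strength in siHic5/siNS is a value from the same list that the rule used and is given as a description. The −log10 p-value of the doubly lost GBR ran from 12.0 to 80.3 with a median of 17.2 (quartiles 14.1 and 22.5), against a median of 30.7 for the other blocked GBR. Their median signal value was 6.37 against 8.80, on a scale that the sources describe in 2 ways, as fold enrichment and as CPM. Median width was 451 bp against 552 bp. By rank within the 9533 GBR, the doubly lost GBR lay between 734 and 9533 with a median of 6489, only 2 were in the strongest 10% of the list, and 4192 ranked below its median. The doubly lost GBR were thus mostly weak peaks, and the classes overlapped over most of the range.

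**Figure D1:**
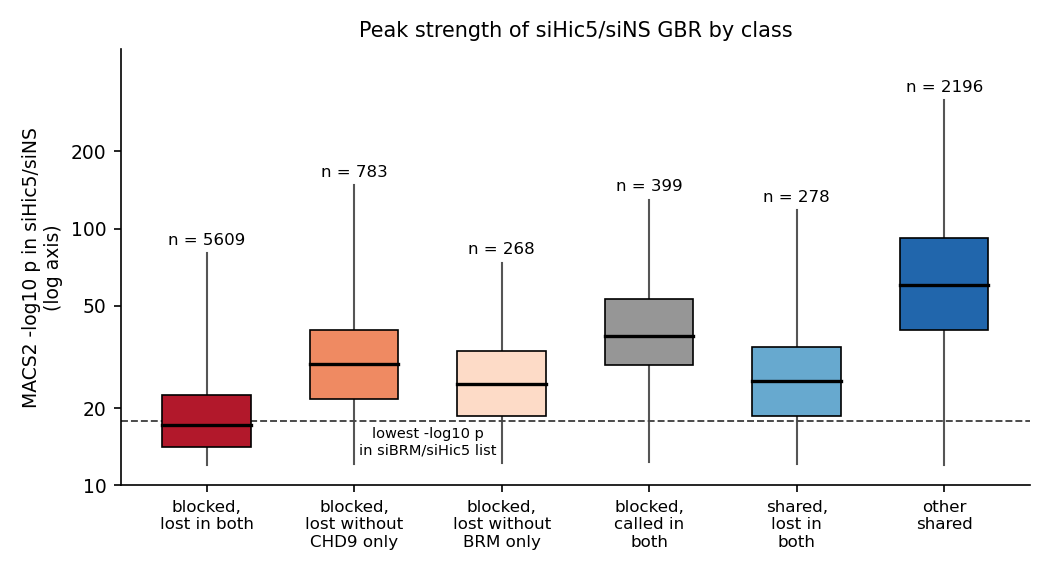
Box plot of the −log10 p-value in siHic5/siNS (log axis) for 6 classes of siHic5/siNS GBR. Boxes span the quartiles, thick lines mark medians, whiskers run from the lowest to the highest value, and the dashed line marks the lowest −log10 p-value of the siBRM/siHic5 list (17.8), which lies above the median of the doubly lost GBR (17.2, leftmost box).

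The cutoffs of the lists differed. The lowest −log10 q-value was 14.2 in siBRM/siHic5 and between 7.26 and 8.91 in the other 5 lists. Of the doubly lost GBR, 2885 (51.4%) had a −log10 q-value in siHic5/siNS below 14.2, against 11.8% of the other blocked GBR, and no GBR of either class was below the cutoffs of the other lists. When all lists were cut at 14.2, 3111 GBR met the rule, 64.0% of the blocked GBR then left. The part of this cutoff in the number of doubly lost GBR was not tested beyond these values.

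Most doubly lost GBR were far from any peak of the lists that defined them. The median gap to the nearest peak was 218 kb in siNS/siNS, 245 kb in siCHD9/siHic5 and 156 kb in siBRM/siHic5. Within 500 bp, 37, 41 and 65 doubly lost GBR had a peak of these lists. Those just inside the rule lay near MN1 (gap of 50 bp to a siBRM/siHic5 peak), CBFA2T3 (67 bp) and SH3BP4 (68 bp). Those just outside lay near TESMIN (overlap of 48 bp with a siBRM/siHic5 peak), SLITRK5 (209 bp with a siCHD9/siHic5 peak) and ZWINT (211 bp with a siNS/siNS peak).

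The single depletions, whose lists the rule did not use, show whether these GBR were called when CHD9 or BRM was depleted and Hic-5 remained. Few were called, and a missing call does not show that GR was absent. The rule partly fixed the comparison below. Doubly lost GBR lacked a call with control siRNA alone and in both double depletions, whereas each other blocked GBR had a call in at least 1 double depletion. In siCHD9/siNS, 7 doubly lost GBR were called (0.125%, interval 0.0605 to 0.257), against 137 of the other blocked GBR (9.45%) and 14.5% of all siHic5/siNS GBR. The odds ratio was 0.0120 (2-sided Fisher's exact test, p = 1.70e-86), and over 10 groups by rank of strength the common odds ratio was 0.0235 (0.00874 to 0.0632). In siBRM/siNS, 4 were called (0.0713%), against 33 of the other blocked GBR (2.28%) and 13.1% of all, with an odds ratio of 0.0306 (exact p = 4.28e-19) and a common odds ratio of 0.0876 (0.0253 to 0.303). With all lists cut at the −log10 q-value of 14.2 the members changed. Of the 3111 GBR that met the rule then, 1 was called in each list, neither of them doubly lost without this cutoff, and the difference did not pass for siBRM/siNS (Fisher's exact p = 0.295).

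**Figure D2:**
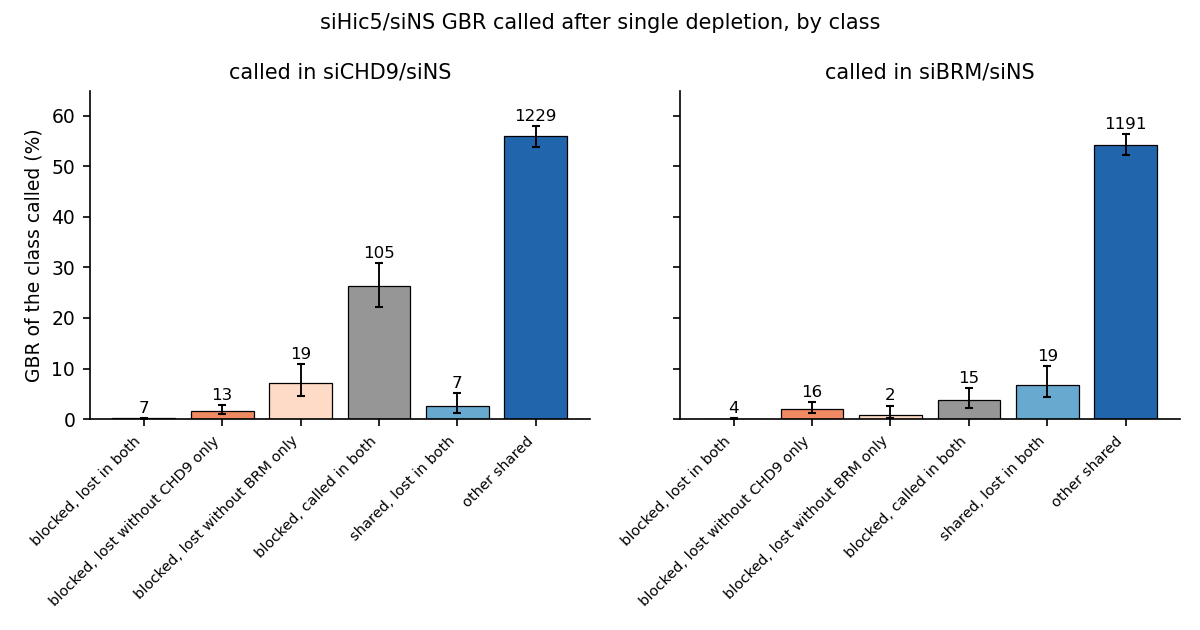
Share of each class of siHic5/siNS GBR (y axis, percent) that was called in siCHD9/siNS (left) and siBRM/siNS (right), with Wilson 95% intervals and the number called above each bar. The doubly lost GBR (leftmost bars) stood at 7 and 4 of 5609, and the blocked GBR called in both double depletions at 105 and 15 of 399.

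Among the blocked GBR called in both double depletions, 26.3% were called in siCHD9/siNS. In all, 11 doubly lost GBR were called in either single depletion and 0 in both. The 7 in siCHD9/siNS had as nearest genes SMC3 (a cohesin subunit), PAX2 (a kidney transcription factor), NDRG1, IGFBP3 (an insulin-like growth factor binding protein), ASAP1, SDC4 (syndecan-4, a focal adhesion proteoglycan) and ACTR3 (an Arp2/3 subunit). These GBR lay 10.6 kb (SDC4) to 648 kb (IGFBP3) from the named TSS. Their −log10 p-values in siCHD9/siNS were 11.7 at SMC3, 11.8 at PAX2, 12.2 at NDRG1, 13.3 at IGFBP3, 12.0 at ASAP1, 12.0 at SDC4 and 12.1 at ACTR3. All lay close to the lowest value of that list, 11.6. The 4 in siBRM/siNS lay near CMTM4 (11.5), PRELID3B (11.7), ENSG00000285542 (16.3) and NR2F1 (13.5), a nuclear receptor gene also known as COUP-TFI, in a list whose lowest −log10 p-value was 11.3. The summits of the 11 peak pairs lay 1 to 94 bp apart.

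DNA sequence was not used by the rule, but some motif shares varied with peak strength, which differed between the classes. In windows of 1 kb centered on the summit, AP-1 matches were less frequent at doubly lost GBR than at the other blocked GBR (34.4% against 48.4%, odds ratio 0.558, interval 0.497 to 0.627, Fisher's exact test adjusted over 12 motifs p = 2.79e-21). Windows of 1 kb located 5 kb to either side of doubly lost GBR held an AP-1 match in 16.5%, and all siHic5/siNS GBR in 37.1%. GRE matches were found at 48.8% of the doubly lost and 49.0% of the other blocked GBR (odds ratio 0.992, 0.884 to 1.11, exact test adjusted p = 0.948), against 12.5% of the flanking windows. ETS matches were found at 39.0% and 38.3% (odds ratio 1.03, 0.913 to 1.16, exact test adjusted p = 0.896), against 27.6% of the flanking windows. Doubly lost GBR thus held GRE matches about as often as the other blocked GBR did, and AP-1 matches less often. Over all siHic5/siNS GBR the shares were 53.6% for GRE and 37.9% for ETS. GBR also called in siNS/siNS and not lost in both double depletions held a GRE match in 68.0%. The AP-1 share of doubly lost GBR lay near that of all GBR (34.4% and 37.1%). Blocked GBR lost with BRM depletion only (57.1%) and those called in both double depletions (58.1%) had the highest AP-1 shares.

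The AP-1 difference was also present within 100 bp of the summit. An AP-1 match was present at 17.2% of the doubly lost GBR (16.2 to 18.2), against 29.8% of the other blocked GBR (odds ratio 0.488, exact test adjusted p = 4.35e-24). The share over all siHic5/siNS GBR was 19.4%. By class, the share was 22.1% for GBR lost with CHD9 depletion only, 38.1% for those lost with BRM depletion only and 39.3% for those called in both. Doubly lost GBR were lower than each of these 3 classes, by Fisher's exact test with odds ratios of 0.731 (adjusted p = 0.0117), 0.337 (adjusted p = 4.16e-14) and 0.319 (adjusted p = 1.31e-22). Among blocked GBR, the 2 classes that remained called in siCHD9/siHic5 therefore had the most AP-1 matches. GBR lost with CHD9 depletion only had fewer than those lost with BRM depletion only (odds ratio 0.462, Fisher's exact test, p = 7.57e-07). Among the 278 shared GBR (also called in siNS/siNS) that were lost in both double depletions the share was lower still, 9.35%, and doubly lost GBR were higher than these (odds ratio 2.01, exact test adjusted p = 0.00230). The other 2196 shared GBR had an AP-1 match in 19.5%, near the share of all GBR.

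**Figure D3:**
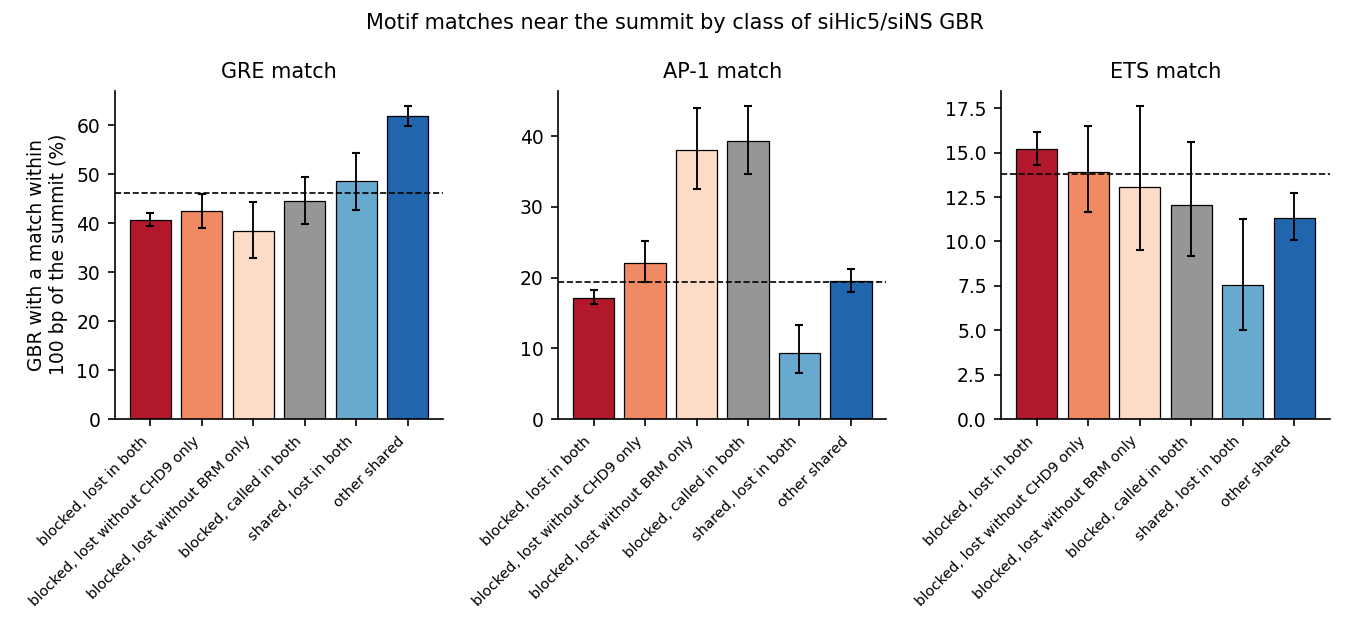
Share of GBR (y axis, percent, separate scale per panel) with a GRE, AP-1 or ETS match within 100 bp of the summit, by class, with Wilson 95% intervals. The dashed line is the share in all siHic5/siNS GBR (46.1% for GRE, 19.4% for AP-1, 13.8% for ETS), and doubly lost GBR (leftmost bars) stand at 40.7%, 17.2% and 15.2%.

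Since the doubly lost GBR were weaker peaks, the shares were compared within groups of equal strength. The AP-1 share of doubly lost GBR was lower in 10 of 10 groups, at 19.3% against 25% in the weakest 10% of the list and 6.56% against 31.5% in the ninth group, and the common odds ratio was 0.432 (0.367 to 0.507, Cochran-Mantel-Haenszel test over n = 7059 blocked GBR, adjusted p = 1.21e-23). When only GBR with a −log10 q-value of at least 14.2 were kept, the odds ratio in 1 kb was 0.539 for AP-1, and the odds ratios for ETS (1.00, exact test adjusted p = 0.972) and GRE (1.09, exact test adjusted p = 0.359) did not pass. The ETS share within 100 bp was 15.2% against 13.2% without grouping (odds ratio 1.18, exact test adjusted p = 0.124). In 10 of 10 strength groups it was higher for doubly lost GBR, the strongest group holding only 2 of them, with a common odds ratio of 1.59 (1.30 to 1.95, n = 7059, adjusted p = 5.71e-05). The GRE share was higher in 9 of 10 groups, with a common odds ratio of 1.18 (1.02 to 1.35, n = 7059, adjusted p = 0.0405), whereas without grouping it was 40.7% against 42.3%. Against the other blocked GBR, the ETS and GRE differences within 100 bp thus passed over strength groups and not without grouping, and the AP-1 difference passed either way.

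**Figure D4:**
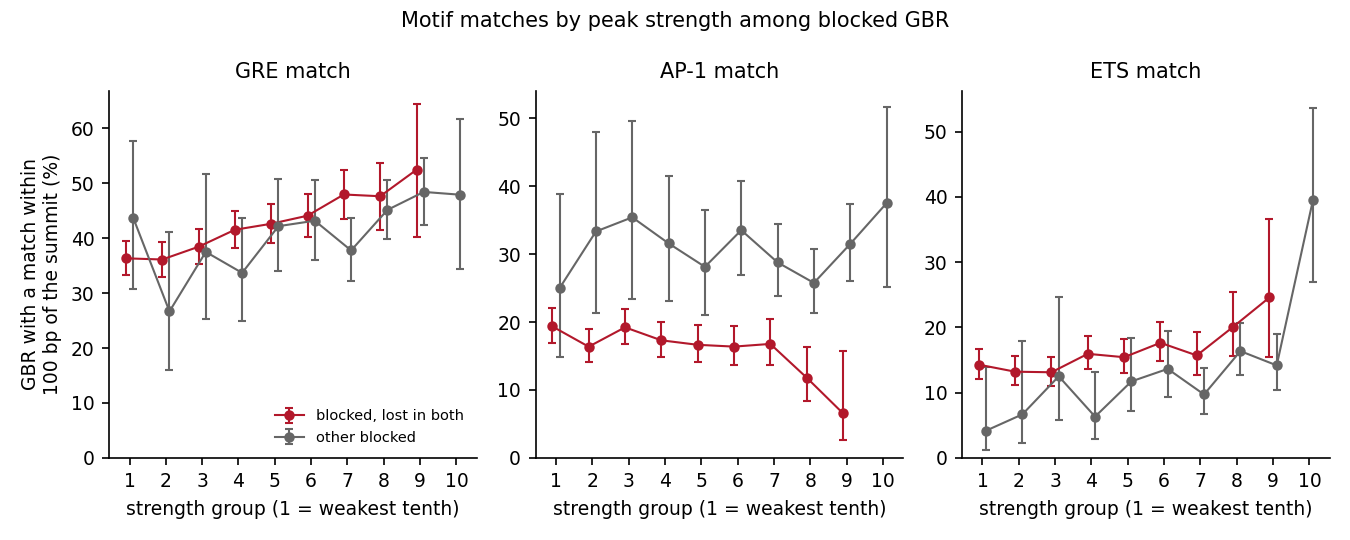
Share of blocked GBR (y axis, percent) with a GRE, AP-1 or ETS match within 100 bp of the summit, in 10 groups of equal size of the siHic5/siNS list in order of −log10 p-value (x axis, 1 is the weakest). Points with Wilson 95% intervals are doubly lost (red) and other blocked GBR (gray), points from fewer than 20 GBR are left out, and the red AP-1 points lie below the gray ones in each group shown.

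Matches were also combined. A GRE without AP-1 within 100 bp was present at 36.9% of the doubly lost GBR against 32.9% of the other blocked GBR (odds ratio 1.19, Fisher's exact test adjusted over 6 combinations p = 0.00572). Both elements together were present at 3.83% against 9.38% (odds ratio 0.385, exact test adjusted p = 5.87e-15) and at 14.8% of the blocked GBR called in both double depletions. No GRE, AP-1 or ETS match was found at 38.4% against 31.7% (odds ratio 1.35, exact test adjusted p = 2.47e-06). The best GRE-like site within 100 bp of the summit had 0 mismatches at 7.83% of the doubly lost GBR, 1 at 32.9%, 2 at 36.3% and 3 at 20.4%. For the other blocked GBR the corresponding shares were 8.55%, 33.7%, 39.2% and 17.0%.

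Among the other 9 motifs, TEAD (CATTCCA or CATTCCT), bound by the partners of YAP, differed in 1 kb, at 40.7% against 44.8% (odds ratio 0.844, exact test adjusted p = 0.0271). Within 100 bp the TEAD shares were 14.7% and 16.8% and did not pass (exact test adjusted p = 0.124), and the call was lost in 6 of 11 alternatives, with odds ratios from 0.770 to 0.889 over all 11. The motifs of RUNX (TGTGGTT), FOX (GTAAACA or ATAAACA), C/EBP (TTGCNNCAA), SP/KLF (GGGCGG), CRE (TGACGTCA), NFY (CCAAT), the E-box CACCTG and the GR half-site AGAACA gave odds ratios from 0.773 to 1.12 that did not pass. All were searched on both strands, and the half-site can lie within a GRE. Within 100 bp the half-site was present at 37.3% of the doubly lost and 33.5% of the other blocked GBR (odds ratio 1.18, exact test adjusted p = 0.0466).

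Matches lay close to the summit. The nearest GRE match in 1 kb was at a median of 25.5 bp from the summit of doubly lost GBR and 18.5 bp for other blocked GBR, the nearest AP-1 match at 97.5 bp and 74.0 bp, and the nearest ETS match at 139 bp and 155 bp. In the 20 bp just downstream of the summit on the plus strand, doubly lost GBR had 5.99 GRE matches per kb and GBR, against a mean of 0.146 in the bins 400 to 480 bp from the summit. The AP-1 density near the summit was 0.981 against 0.202 in these outer bins, and the ETS density 0.820 against 0.363. GRE matches formed a narrow peak, AP-1 and ETS matches a broader one.

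**Figure D5:**
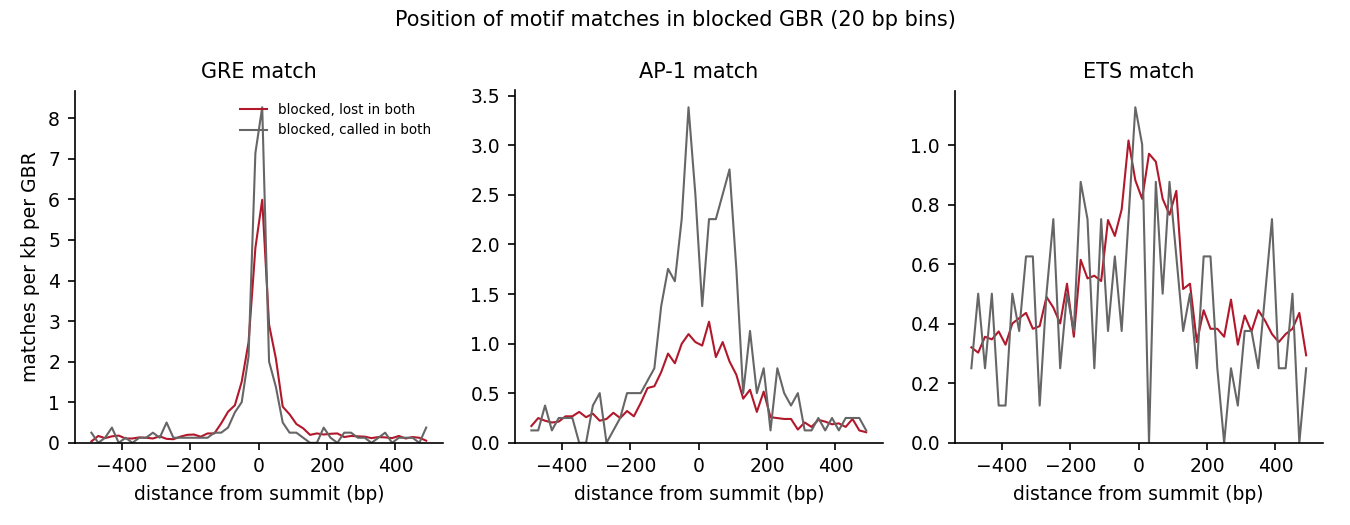
Density of GRE, AP-1 and ETS matches (y axis, matches per kb per GBR, separate scale per panel) against distance from the summit (x axis, bp) in 20 bp bins, for doubly lost GBR (red, n = 5609) and blocked GBR called in both double depletions (gray, n = 399). The red AP-1 curve stands at 1.02 in the bin just upstream of the summit and the gray one at 2.51, against 0.981 and 1.38 in the bin just downstream. The gray curves rest on few matches per bin.

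Position relative to genes differed little between the classes. The median distance to the nearest TSS was 52.8 kb for doubly lost and 53.7 kb for other blocked GBR. Summits were intergenic at 49.9% against 53.3% (odds ratio 0.871, Fisher's exact test, p = 0.0199), in an intron of a protein-coding gene at 46.3% against 42.3% (odds ratio 1.18, p = 0.00649), in a UTR exon at 2.60% against 2.55% and in a coding exon at 1.25% against 1.86%. A summit within 1 kb of a canonical TSS was found for 276 doubly lost GBR (4.92% against 3.72%, odds ratio 1.34, exact p = 0.0593). None of 10 position features passed after adjustment over all 10 by Fisher's exact test (lowest adjusted p = 0.0601), and 4 had an unadjusted p under 0.05. With adjustment over only the 3 main features, which were a TSS within 1 kb, an intergenic summit and a neighboring GBR within 10 kb, the latter 2 passed (Fisher's exact test, adjusted p = 0.0299 for each). Median GC content in 1 kb was 46.2% against 47.3%.

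Another siHic5/siNS GBR lay within 10 kb of 29.1% of the doubly lost and 32.6% of the other blocked GBR (odds ratio 0.852, Fisher's exact test, p = 0.0120), and over strength groups the common odds ratio was 1.07 (p = 0.398). For 1634 doubly lost GBR with such a neighbor, the nearest one was itself doubly lost in 59.7%, shared in 26.7% and otherwise blocked in 13.6%, close to the shares of 58.8%, 26.0% and 15.2% in the whole list. Across chromosomes, doubly lost GBR made up 73.9% (chromosome 19) to 83.1% (chromosome 5) of the blocked GBR.

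The strongest doubly lost GBR was located in an intron of KCNQ3, a voltage-gated potassium channel gene, at chr8:132420221-132420908, with a −log10 p-value of 80.3 and rank 734. It held no GRE or AP-1 match and 1 ETS match in 1 kb. Next came intergenic GBR 84.3 kb from the TSS of SH3GLB1 (76.3), which encodes endophilin B1, and 261 kb from that of AUH (65.9). With them came an intronic GBR of TAFA5 (69.3) and a GBR in a UTR exon of TRIM35 (65.9). GBR near LY6D (65.2), NOX3 (62.6) and C9orf50 (60.5) and introns of GAS6 (61.2), a ligand of TAM receptor kinases, and SHQ1 (58.8) completed the 10 strongest. Of these 10 GBR, only the one in SHQ1 had an AP-1 match in 1 kb, 445.5 bp from the summit. Over all doubly lost GBR the share with such a match was 34.4%, and over all siHic5/siNS GBR 37.1%. The weakest, near DISP3, DHRS3 and ITLN2, had −log10 p-values of 12.0.

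Near promoters, the strongest doubly lost GBR lay 278 bp from the TSS of CRYAB (51.9), a small heat shock protein gene, 234 bp from CNKSR3 (42.9), a scaffold gene of sodium channel regulation, 430 bp from SEMA5A (41.6), an axon guidance gene, 995 bp from ACOT11 (40.0), 86 bp from TNRC18 (36.1) and 519 bp from NHEJ1 (35), a DNA end joining gene, with the −log10 p-value in siHic5/siNS in parentheses. None of these 6 GBR had an AP-1 match in 1 kb, a match held by 34.4% of all doubly lost and 37.1% of all siHic5/siNS GBR. The farthest from any TSS lay 1916 kb from CDH9, 1699 kb from NUDT12 and 1639 kb from TMEFF2.

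Each GBR was assigned to the protein-coding gene with the nearest TSS. In this way 3517 genes (17.6% of 20020) received at least 1 doubly lost GBR, of which 1648 had it as their single GBR and 980 also had a shared one. The nearest gene is a positional label and expression was not measured in these lists. Genes with the most were SOX9 (14 of 21 GBR), a chondrogenic transcription factor gene in a large gene-poor interval, CITED2 (12 of 13), a CBP/p300-binding coregulator, ZFP36L1 (11 of 20), an RNA-binding protein of mRNA decay, and TRIB1 (10 of 13), a pseudokinase. There were 8 each near MYC, TNS3 (a focal adhesion tensin), ZMYND8 (a chromatin reader), KCNMA1 (the BK potassium channel), MED13L (a Mediator subunit), COL23A1 (a transmembrane collagen), PDGFA (a growth factor) and ACTL7B. The 12 genes differed in the density of doubly lost GBR, from 6.41 per Mb at KCNMA1 to 40.6 per Mb at COL23A1, where all 8 lay within the gene. At CITED2 the doubly lost GBR lay 2.29 to 731 kb from the TSS, with 0 other blocked GBR and 1 shared. The 12 genes also differed in matches within 100 bp of the summit. GRE matches ran from 7 of 8 at MED13L to 0 of 8 at PDGFA, with 5 of 10 at TRIB1. AP-1 matches ran from 5 of 10 at TRIB1 to 0 of 8 at MED13L, KCNMA1 and COL23A1. Over all doubly lost GBR these shares were 40.7% and 17.2%, and over all siHic5/siNS GBR 46.1% and 19.4%.

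Gene lists were described by the share of genes that received a doubly lost GBR in this way, beside 17.6% of all protein-coding genes. Beside each share stands the median interval that a gene of the list claims, which was 0.0604 Mb over all genes. Whether the share depends on this interval was not tested. Of 26 established GR target genes, 18 (69.2%, median interval 0.110 Mb) had one, but doubly lost GBR were only 41.8% of the 91 GBR at these genes, against 58.8% of all GBR, and 13 of the 18 genes also had a shared GBR. ERRFI1 (an inhibitor of EGFR), CEBPB (a transcription factor) and ZBTB16 (a zinc finger repressor) had 5, 5 and 4. The strongest lay 222 kb from SGK1 (a kinase of sodium transport), with a −log10 p-value of 56.9. The list includes ANO2, RP1L1, IGFBP1 and SCNN1A, which the study displayed as representative genes with these same lists and which are therefore no independent evidence. ANO2 and RP1L1 had 1 doubly lost GBR each, and IGFBP1 and SCNN1A had 0. FKBP5, KLF9 and PER1 had 0, with 1, 5 and 2 GBR of other classes.

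Among genes of the focal adhesion and paxillin family, to which Hic-5 belongs, 14 of 25 (56.0%, 0.102 Mb) had a doubly lost GBR, led by TNS3 with 8, TNS1 with 6 and ITGB1, an integrin β subunit, with 5. Of TGF-β signaling genes, 13 of 22 (59.1%, 0.215 Mb) had one, with 4 near the receptor gene TGFBR2 and 3 each near the inhibitory SMAD6 and the activin subunit INHBA. Doubly lost GBR were 60.3% of the 63 GBR at the focal adhesion genes and 46.3% of the 54 at the TGF-β genes, beside 58.8% of the whole list. The ETS family had 11 of 27 (40.7%, 0.115 Mb) and the AP-1 family 6 of 16 (37.5%, 0.0604 Mb), and doubly lost GBR were 66.7% and 50% of the GBR at these families. FOSL2 alone had 7 and FOS and JUN 1 each. Osteoblast and bone matrix genes had 9 of 25 (36.0%, 0.223 Mb), among them COL5A1 with 4. Chromatin remodelers and GR coregulators had 8 of 30 (26.7%, 0.155 Mb), among them ARID1B, a SWI/SNF subunit gene, with 4, and NR3C1, the GR gene, with 1. CHD9 had 0 doubly lost GBR. Doubly lost GBR were 62.5% of the GBR at the bone genes and 61.1% at the remodelers and coregulators. Lists of genes of other tissues stood at 8 of 25 for neuronal synapse genes (32.0%, 0.211 Mb), 8 of 25 for blood cell genes (32.0%, 0.0601 Mb) and 3 of 20 for hepatocyte genes (15.0%, 0.0630 Mb). Doubly lost GBR were 46.7%, 54.5% and 50% of the GBR at these 3 lists of genes. Thus 2 of the 3 lists of other tissues also exceeded the share over all genes.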

How the data were processed

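Each of the 6 deposited lists gives a signal value, a −log10 p-value and a −log10 q-value per peak, which the authors obtained by running MACS2 on pooled replicates after BWA alignment of trimmed reads to GRCh38/hg38 and filtering by IDR (versions and IDR threshold not given in the sources used here). Depth acts on which weak peaks are called. Raw read totals are stated in the study's methods, but the lists hold no depth and none was used here. The doubly lost GBR, the gene lists and the tests were chosen with earlier results of these data known. Overlap meant at least 1 shared bp. Wilson intervals (95%) were put on shares, Fisher's exact test (2-sided) compared classes, and p-values were adjusted by Benjamini-Hochberg. Common odds ratios (Cochran-Mantel-Haenszel) used 10 strength groups of the whole siHic5/siNS list, ordered by −log10 p-value. Consensus motifs were counted on both strands in 1 kb and 200 bp windows. Protein-coding genes came from GENCODE release 44. Named sites were the 10 strongest and 3 weakest, the 6 strongest within 1 kb of a TSS, the 3 farthest from one, all that were called in a single depletion, the 8 genes with the most (12 with ties), the 3 strongest with a GRE without mismatch, and up to 3 genes per list by strongest GBR, and further list genes were named after their counts were seen. Sequences in UTR exons were not printed, and 1 further sequence is not reported here. Overlap, motif and test code was tested on simulated data. Software was bedtools 2.31.1, samtools 1.23.1, Python 3.11.15, statsmodels 0.14.6, SciPy 1.17.1, NumPy 2.4.6, pysam 0.24.0, pandas 2.3.3 and Matplotlib 3.10.9. Alternatives were other overlap rules and cutoffs, strength groupings, windows, patterns and comparison classes. Repeat content was not tested.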

Additional observations from a re-analysis of the deposited data

Results flagged for a closer look

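For the GRE in 1 kb, the difference between GBR lost and not lost in both double depletions was not the same at blocked as at shared GBR. At blocked GBR the odds ratio was 0.992, and at shared GBR it was 0.656 (58.3% of the 278 shared GBR lost in both against 68.0% of the other shared GBR). The ratio of these odds ratios was 1.51 (interaction term of a logistic regression over n = 9533 GBR, p = 0.00378, adjusted over 3 motifs p = 0.0114). With peak rank as a covariate it was 1.30 (n = 9533, p = 0.0714) and no longer passed. For AP-1 the ratio was 1.04 (n = 9533, p = 0.826), with odds ratios of 0.558 at blocked and 0.539 at shared GBR, and for ETS it was 1.31 (p = 0.0711).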

How the results depend on the processing

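No paired analysis was possible because each list pools its replicates, and for the same reason no replicate could be left out. Repeat content was not run, as the reference sequence used here carries no repeat marks. The number of doubly lost GBR was 5610, 5614 and 5530 under other overlap rules, 3111 with all lists cut at the −log10 q-value of 14.2, 2101 with all cut at 20, 1225 with the siHic5/siNS list alone cut at 20, and 113 among the 1000 strongest peaks of each list. The share called in siCHD9/siNS was below that of the other blocked GBR in 6 of 6 alternatives, in a comparison that the rule partly fixed. The share called in siBRM/siNS was 0.0321% at 14.2 (Fisher's exact p = 0.295) and 0% at 20, where no other blocked GBR was called either.

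For AP-1 the odds ratio was below 1 in 10 of 11 alternatives. It was 1.59 against shared GBR lost in both, a class with fewer matches than the doubly lost GBR. The GRE odds ratio, 0.992 in 1 kb, rose above 1 over strength groups (1.24 in 10, 1.26 in 50, 1.24 by signal value), in the regression with GC content and rank (1.18) and over strength groups in the 200 bp window (1.18), and was 0.683 against shared GBR lost in both. The ETS odds ratio passed over strength groups (1.26 in 10, 1.24 in 50, 1.19 by signal value), in the regression (1.20), against shared GBR lost in both (1.48) and over strength groups in the 200 bp window (1.59). It was 0.969 when the first C of the pattern was dropped. Of the other 9 motifs 1 passed, against 2 at 14.2 in all lists, 2 with siHic5/siNS GBR at 14.2 or above, 0 against GBR called in both and 4 over strength groups in the 200 bp window. FOX was 0.604 against shared GBR lost in both.

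A summit within 1 kb of any transcript start gave 1.23 (Fisher's exact p = 0.0451). The intergenic odds ratio, past an unadjusted p of 0.05 and not the adjustment over 10 features, did not pass the unadjusted p at 14.2 in all lists (0.924) and against shared GBR lost in both (0.874). A neighbor within 10 kb gave 1.07 over strength groups, 0.948 by signal value, 0.912 at 14.2 in all lists, 0.951 with siHic5/siNS GBR at 14.2 or above and 0.831 against GBR called in both, and within 50 kb it gave 0.922, none of them at an unadjusted p under 0.05. The causes of these changes were not tested. The window of 200 bp with strength groups, the start of any transcript, the restriction to siHic5/siNS GBR at 14.2 or above and the alternatives for the other 9 motifs were chosen after seeing the data. Counting error limits the classes of 268 to 399 GBR most.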
